A study of Mus musculus with 9 samples.

Results

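Scavenger and hyaluronan receptors are the surface and endosomal proteins with which macrophages take up spent proteins, lipids, matrix and dying cells. A set of 10 genes of this kind was followed here in the blood of mouse embryos: Mrc1, Lyve1, Stab1, Stab2, Msr1, Colec12, Cd36, Cd163, Timd4 and Cd68. They were taken as every probe set that the platform annotation assigned to exactly 1 of these symbols, which gave 16 of the 45037 probe sets tested, for 10 of 18193 measured genes. Lyve1 had 2 probe sets, Cd36 had 3, Msr1 had 4, and the other 7 genes had 1 each. Measured values of these arrays took part in the choice: Lyve1 was selected on its difference between heterozygous and wild-type blood, the largest rise of that contrast, and the fall of Mrc1 in homozygous blood was already known, so its test is not independent evidence. Values of the heterozygous minus wild-type contrast are therefore given for these genes as a description without a p-value, and so is the homozygous minus heterozygous difference of Lyve1.

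Affymetrix GeneChip mouse expression arrays were hybridized with total RNA from peripheral blood of embryos at E12.5, on a mixed C57BL6/129SvEv background. Matings between heterozygous animals gave the 3 groups, each with 3 arrays and no treatment named: wild-type, Cbfb+/+; heterozygous, with the genotype Cbfb+/ΔC95; and homozygous, with CbfbΔC95/ΔC95. The labels do not describe ΔC95 further; the title of the series concerns the C-terminus of CBFβ-SMMHC, a fusion of core binding factor β with smooth muscle myosin heavy chain. Blood of 8 to 10 embryos was pooled, and the labels leave unstated whether each array had a pool of its own, so the p-values cover just the variation among these 9 arrays, part or all of which may be technical. The sample is whole blood, so a lower level can mean fewer cells of a type or less RNA per cell, and these cannot be told apart. Embryonic globins defined it as blood of this age in every genotype: Hba-x, the embryonic α-like globin, averaged 14.30 (wild-type), 14.31 (heterozygous) and 14.35 (homozygous) on the log2 scale. Bacterial poly-A transcripts added before labelling rose from 10.36 to 10.40 in wild-type arrays to 11.26 in heterozygous and 11.94 to 11.99 in homozygous arrays. Setting them equal would lower every homozygous difference from wild type below by 1.58, every heterozygous one by 0.88 and every homozygous minus heterozygous one by 0.70. The homozygous minus wild-type difference of Cbfb itself was -0.90 ± 0.08 on the log2 scale (SE, limma, adjusted p = 3.39e-06). Its heterozygous minus wild-type difference was -0.23 ± 0.08 and did not pass (limma adjusted p = 0.0928). Cbfb was read by 1 probe set, and whether that detects the transcript of the ΔC95 allele was not tested.

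As background, hyaluronan is a long sugar chain of the extracellular matrix, bound by Lyve1 and Stab2 and cleared through endocytosis. Scavenger receptors bind modified lipoproteins and many other polyanionic ligands, and fetal macrophages derived from the yolk sac carry several of them while they clear dying cells and expelled erythroid nuclei. Core binding factor pairs Cbfb with a RUNX protein that contacts DNA, and the ETS factor PU.1, encoded by Spi1, is a main regulator of macrophage genes.

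The promoters of 7 of the 10 genes matched a RefSeq table of GRCm38.p6. Each was searched, from 250 bases before to 50 after the start and on both strands, for the RUNX motif TGTGGT, whose letters on the opposite strand are ACCACA, and for a PU.1 core motif, GAGGAAGT, whose letters on the opposite strand are ACTTCCTC. The motifs do not contain each other. The RUNX letters were found in 16.76% of 32851 promoters in the table and in 1 of the 7, that of Stab2, where they lay 73 bases before the start. The PU.1 letters were found in 3.20% of all promoters and in 0 of the 7. The 250 bases before the start are shown for the 3 genes with a promoter in the table that were lower in homozygous blood and for Stab2, with the motif match in capitals. They lie at chr2:14229164-14229413 on the plus strand for Mrc1, and on the minus strand at chr11:69666171-69666420 for Cd68, chr14:31168642-31168891 for Stab1 and chr10:87007943-87008192 for Stab2.
Mrc1: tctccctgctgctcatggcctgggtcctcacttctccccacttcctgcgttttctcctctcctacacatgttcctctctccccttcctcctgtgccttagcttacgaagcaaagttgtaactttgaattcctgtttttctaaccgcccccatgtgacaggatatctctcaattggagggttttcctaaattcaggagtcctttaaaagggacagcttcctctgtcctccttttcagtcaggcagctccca
Cd68: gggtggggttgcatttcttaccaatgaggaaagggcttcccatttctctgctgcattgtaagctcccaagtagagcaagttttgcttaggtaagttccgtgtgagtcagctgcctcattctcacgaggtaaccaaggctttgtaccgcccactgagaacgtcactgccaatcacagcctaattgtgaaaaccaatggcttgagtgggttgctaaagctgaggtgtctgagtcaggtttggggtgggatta
Stab1: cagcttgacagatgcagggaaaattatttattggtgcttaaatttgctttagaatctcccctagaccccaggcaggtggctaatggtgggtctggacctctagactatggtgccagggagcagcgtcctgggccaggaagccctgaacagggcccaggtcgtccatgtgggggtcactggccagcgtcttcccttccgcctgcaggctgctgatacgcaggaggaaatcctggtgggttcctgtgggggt
Stab2: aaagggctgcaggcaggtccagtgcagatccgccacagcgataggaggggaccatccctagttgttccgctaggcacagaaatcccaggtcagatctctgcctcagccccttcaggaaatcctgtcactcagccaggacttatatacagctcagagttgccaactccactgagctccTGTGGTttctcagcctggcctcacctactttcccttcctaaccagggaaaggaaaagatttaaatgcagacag
A match is a description of these letters and not a bound site, and a window without one says only that the letters are not there.

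Homozygous blood was set against wild-type blood to see what accompanies 2 copies of the allele. Of the 10 genes, each read by 1 probe set, that of the highest 9-array mean, 4 were lower (Mrc1, Cd68, Lyve1 and Stab1), 0 were higher and 6 did not pass the test at an adjusted p under 0.05. For Lyve1 that probe set has the highest mean through the heterozygous arrays on which the gene was selected; the other one is higher in wild-type and homozygous arrays and did not pass, and read by it 3 of the 10 genes were lower. Among all 18193 genes, 14.9% were called lower and 10.7% higher. By probe set, 6 of 16 were lower and 0 higher, beside 11.7% of all probe sets called lower. The median difference over the 10 genes was -0.17, and that over all genes was 0.05. No probe set was left out for a low level, but 7 of the 16 belonged to the dimmest 40% of the array, among them every probe set of Cd163, Cd36, Timd4 and Colec12.

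Mrc1 encodes the mannose receptor, CD206, a recycling lectin that takes up mannose-bearing glycoproteins. Its probe set was at 7.88, 7.79 and 7.79 in the wild-type arrays, 7.69, 7.72 and 7.65 in the heterozygous arrays, and 4.30, 4.36 and 4.32 in the homozygous arrays. The homozygous arrays stood more than 3 log2 units below all others, while the heterozygous arrays lay just below the wild-type arrays without overlap. Homozygous minus wild-type, the difference was -3.49 ± 0.06 (SE), an 11.3-fold lower level with an adjusted p of 2.15e-11 in limma, and rank 3 from the lowest among 18193 genes. Against heterozygous blood it was -3.36 ± 0.06 (10.3-fold, adjusted p = 3.351e-11). The heterozygous minus wild-type difference was -0.13 ± 0.06. The order of levels was thus wild-type, heterozygous and then homozygous, with a narrow step between wild-type and heterozygous blood and a wide one below them.

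Lyve1 encodes a hyaluronan receptor of lymphatic endothelium that is also carried by a class of fetal and resident macrophages. The probe set with its highest mean over the 9 arrays, called the first here, was at 3.86, 3.83 and 3.73 in wild-type arrays, 6.87, 6.84 and 6.66 in heterozygous arrays, and 2.92, 3.08 and 3.00 in homozygous arrays. No arrays of different genotypes overlapped: the heterozygous arrays were high, and the homozygous arrays were the lowest. The heterozygous mean of 6.79 ± 0.11 stood 2.98 ± 0.07 (SE) above the wild-type mean of 3.81 ± 0.07 (SD, n = 3 each), a 7.89-fold higher level, rank 1 from the highest of 18193 genes, which is how the gene was selected. The homozygous mean of 3.00 ± 0.08 (SD, n = 3) differed by -0.81 ± 0.07 from wild type (SE, 1.75-fold lower, limma adjusted p = 5.689e-06). That test shares its wild-type arrays with the contrast that selected the gene. Both of its levels were also dim, near those of Timd4 (3.63) and Cd163 (3.37) in wild-type arrays, where signal over background is unknown. Homozygous minus heterozygous, the difference was -3.79 ± 0.07 (13.8-fold), the lowest of all genes.

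The second probe set of Lyve1 did not follow this pattern in size. It was at 4.40, 4.34 and 4.46 in wild-type arrays, 4.69, 4.82 and 4.55 in heterozygous arrays, and 4.16, 4.37 and 4.60 in homozygous arrays. The heterozygous arrays again lay above the wild-type arrays, but by 0.29 ± 0.10, and the homozygous arrays spread across both other groups. Its homozygous minus wild-type difference was -0.02 ± 0.10 (adjusted p = 0.911, limma). The annotation lists both probe sets under the same transcript record. With the probe sets averaged, the heterozygous minus wild-type difference of Lyve1 was 1.63 and the homozygous minus wild-type difference -0.42 (adjusted p = 0.00133, limma).

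Stab1 and Stab2 encode the stabilins, large receptors of sinusoidal endothelium of which Stab1 is also a macrophage protein and Stab2 the main endocytic receptor for hyaluronan. Stab1 was at 7.58, 7.55 and 7.55 in wild-type arrays, 7.83, 7.74 and 7.89 in heterozygous arrays, and 6.84, 6.91 and 7.08 in homozygous arrays. The 3 groups did not overlap, with heterozygous blood highest and homozygous blood lowest, the order also seen for Lyve1. Homozygous minus wild-type, Stab1 differed by -0.62 ± 0.07 (SE, 1.53-fold lower, limma adjusted p = 4.465e-05). Homozygous minus heterozygous, it differed by -0.87 ± 0.07 (1.83-fold lower, limma adjusted p = 7.527e-06). The heterozygous minus wild-type difference was 0.26 ± 0.07. Stab2 was at 4.39, 4.62 and 4.65 in wild-type arrays, 4.65, 4.57 and 4.65 in heterozygous arrays, and 4.86, 4.71 and 4.65 in homozygous arrays. These groups overlapped, and the homozygous minus wild-type difference was 0.18 with a 95% interval of 0.01 to 0.36 and missed the threshold (limma adjusted p = 0.136).

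**Figure D1:**
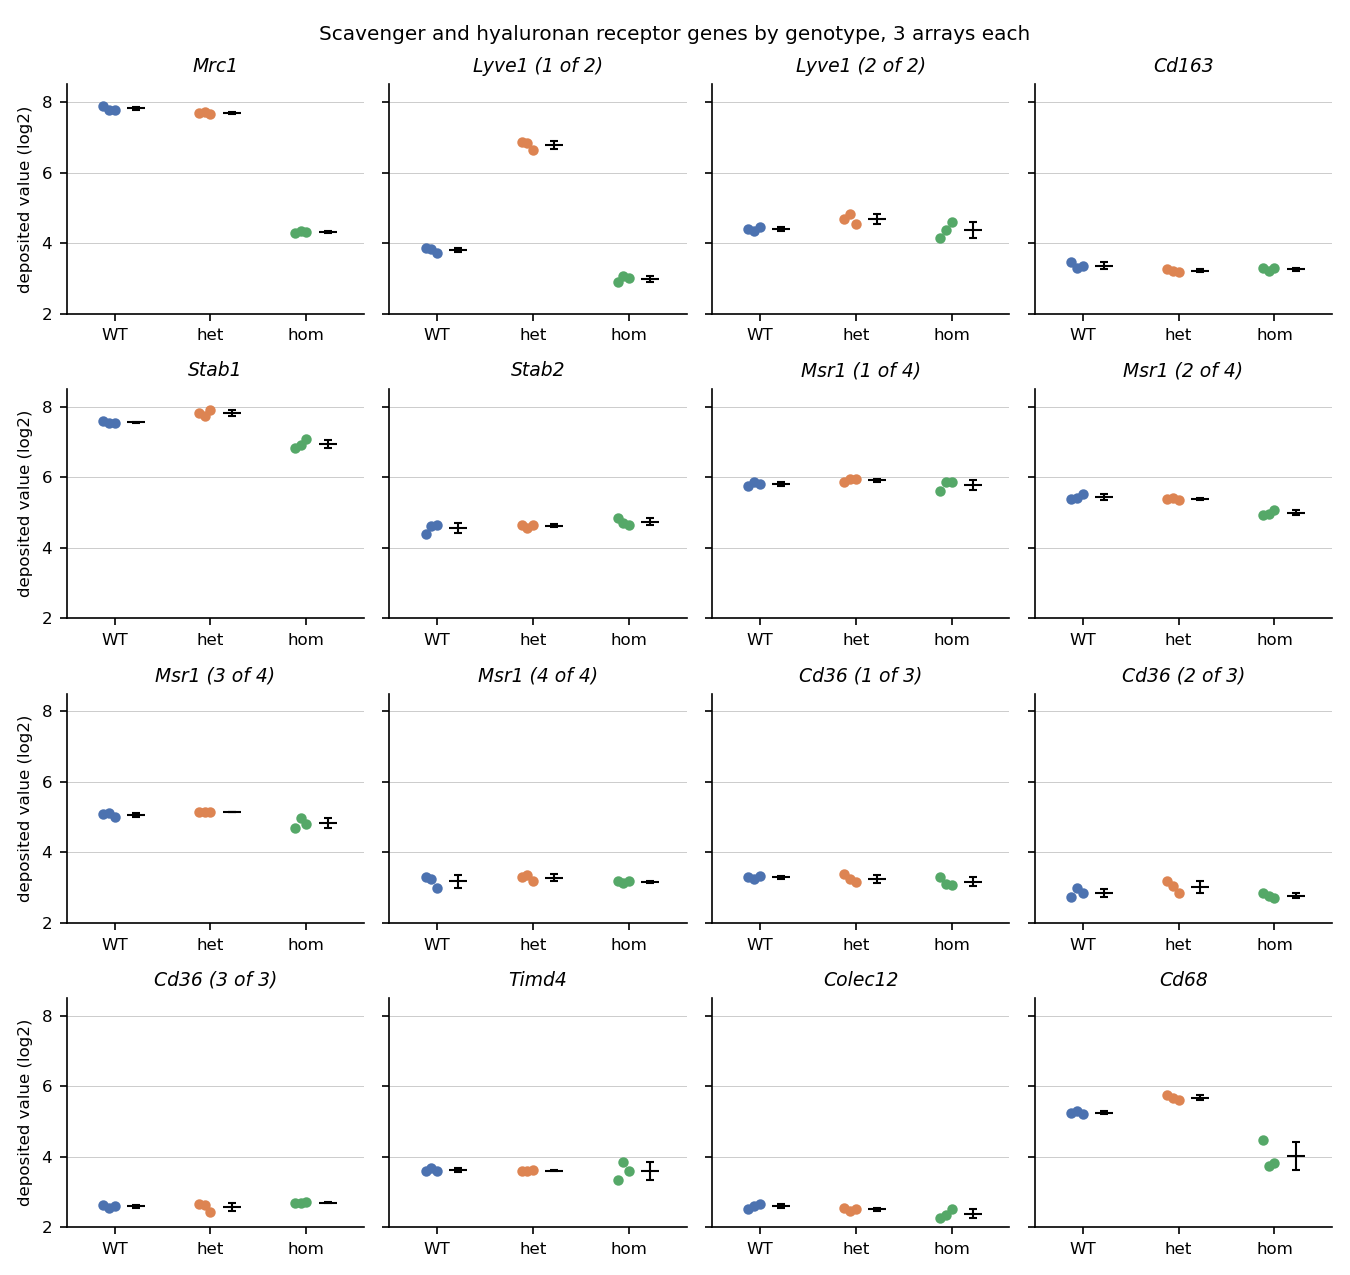
Deposited log2 value of each of the 16 probe sets, one panel each, in wild-type (WT), heterozygous (het) and homozygous (hom) arrays; points are arrays and the bars beside them the mean ± SD of 3 arrays. Mrc1 dropped from 7.82 to 4.33 in homozygous blood, the first Lyve1 probe set stood at 6.79 in heterozygous blood, and the Cd163, Cd36, Timd4 and Colec12 panels stayed below 4 in every array.

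Cd68 encodes a heavily glycosylated membrane protein of macrophage endosomes and lysosomes. It was at 5.24, 5.28 and 5.20 in wild-type arrays, 5.74, 5.67 and 5.60 in heterozygous arrays, and 4.47, 3.75 and 3.82 in homozygous arrays. The heterozygous arrays were again the highest and the homozygous arrays the lowest without overlap, and homozygous array 1 stood above the other two. The homozygous minus wild-type difference was -1.23 ± 0.15 (SE, 2.35-fold, adjusted p = 5.767e-05, limma), and leaving out 1 array at a time moved it between -1.46 and -1.10. Homozygous minus heterozygous, it was -1.66 ± 0.15 (3.15-fold, adjusted p = 1.363e-05). The heterozygous minus wild-type difference was 0.43 ± 0.15.

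Msr1 encodes the class A scavenger receptor for modified lipoproteins, and its 4 probe sets gave unlike results. The brightest had means of 5.81 ± 0.06 in the wild-type, 5.92 ± 0.04 in the heterozygous and 5.79 ± 0.14 in the homozygous arrays (SD, n = 3 each), with a homozygous minus wild-type difference of -0.02 (adjusted p = 0.892, limma; 95% interval -0.18 to 0.14). A second was at 5.37, 5.41 and 5.52 in wild-type arrays, 5.37, 5.42 and 5.37 in heterozygous arrays, and 4.93, 4.97 and 5.07 in homozygous arrays. Its homozygous arrays lay below all the others, at -0.45 ± 0.06 from wild type (adjusted p = 0.000231) and -0.40 ± 0.06 from heterozygous blood (adjusted p = 0.00122). A further probe set was lower, at -0.24 ± 0.07 from wild type (adjusted p = 0.0349), a call lost in 9 of 18 alternatives, among them without wild-type array 1 or 2, heterozygous array 1 or 2, or homozygous array 1 or 3 (adjusted p up to 0.120). From heterozygous blood it differed by -0.31 ± 0.07 (adjusted p = 0.0140), a call lost in 2 of 18, with reference genes set equal and at a threshold of 0.01. The dimmest was at 3.17, 3.29 and 3.17 in the 3 genotypes and gave a homozygous minus wild-type difference of -0.004. The brightest and the dimmest probe sets share a transcript record in the annotation, and the 2 that were lower have records of their own. With the 4 probe sets averaged, and gene means tested in place of probe sets, the difference was -0.18 and passed (adjusted p = 0.0197).

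The remaining receptors were dim in all genotypes, and their probe sets passed the test in neither homozygous contrast. Colec12, a scavenger receptor with a collectin domain that is mostly endothelial, was at 2.53, 2.62 and 2.65 in wild-type, 2.54, 2.46 and 2.53 in heterozygous, and 2.28, 2.34 and 2.53 in homozygous arrays. Its homozygous minus wild-type difference of -0.22 ± 0.07 came closest to the threshold (adjusted p = 0.0567, limma), and it passed in 5 of 17 alternatives, among them without homozygous array 3 (-0.29, adjusted p = 0.00977), as it did in the test of gene means (adjusted p = 0.0302). Cd36, a receptor for long-chain fatty acids and oxidized lipoproteins that platelets carry too, ranged from 2.44 to 3.38 over its 3 probe sets and 9 arrays. Their homozygous minus wild-type differences were -0.13, -0.09 and 0.10 (adjusted p = 0.285, 0.543 and 0.332, limma). Cd163, the receptor for haemoglobin bound to haptoglobin, had means of 3.37 in the wild-type, 3.23 in the heterozygous and 3.27 in the homozygous arrays, with a homozygous minus wild-type difference of -0.10 (adjusted p = 0.284; 95% interval -0.24 to 0.03). Timd4, a phosphatidylserine receptor with which macrophages tether dying cells, had means of 3.63, 3.61 and 3.59, with a difference of -0.04 (adjusted p = 0.836; 95% interval -0.26 to 0.18).

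In heterozygous minus wild-type blood, the contrast on which Lyve1 was selected, 2 of the 10 genes passed the test upward (Lyve1 and Stab1) and 0 downward, where 4.79% of all genes were called higher and 7.04% lower. By probe set the count was 2 of 16, with 3.41% of all probe sets called higher. The call of Stab1 was lost when any wild-type or heterozygous array, or homozygous array 2, was left out. With reference genes set equal (the means of 8 housekeeping genes), 3 genes passed: Lyve1 upward, and Mrc1 (-0.27) and Cd163 (-0.28) downward, while Stab1 was at 0.12 and did not. Under that scaling 8369 of all 45037 probe sets passed, 7.95% of them higher. Arrays of these genotypes did not overlap in 7 of the 16 probe sets, 5 with heterozygous blood above and 2 below, and in 24.1% of all probe sets. The 5 above were both probe sets of Lyve1, and those of Stab1, Cd68 and Msr1; the 2 below were Mrc1 and Cd163. The median difference over the 10 genes was 0.02, and over all genes 0.01. Nothing is read from these counts, because the choice of genes used this contrast.

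Between homozygous and heterozygous blood, 4 of the 10 genes were lower and 0 higher (Mrc1, Lyve1, Stab1 and Cd68), where 10.4% of all genes were called lower and 5.38% higher. By probe set, 6 of 16 were lower, beside 7.95% of all probe sets. The Lyve1 call rests on its first probe set here too, and was all but fixed in advance by the high heterozygous arrays that selected the gene. It adds no support to either count. Both counts otherwise rest on Mrc1, Stab1 and Cd68 and, by probe set, on Msr1 too. Of these, the fall of Mrc1 in homozygous blood was already known, so its test is not independent evidence either. With reference genes set equal, 6 genes and 8 probe sets passed, of which Cd163 (0.19), Stab2 (0.26) and 1 probe set of Cd36 (0.27) were higher in homozygous blood. Under that scaling 19619 of all 45037 probe sets passed, 87.6% of them higher, and the median of all probe sets was 0.17, so nothing is read from these rises. The median over the 10 genes was -0.13, and that over all genes 0.03. This contrast shares its homozygous arrays with the comparison against wild type and its heterozygous arrays with the contrast that selected Lyve1, so its values stand beside those above and do not add to them.

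**Figure D2:**
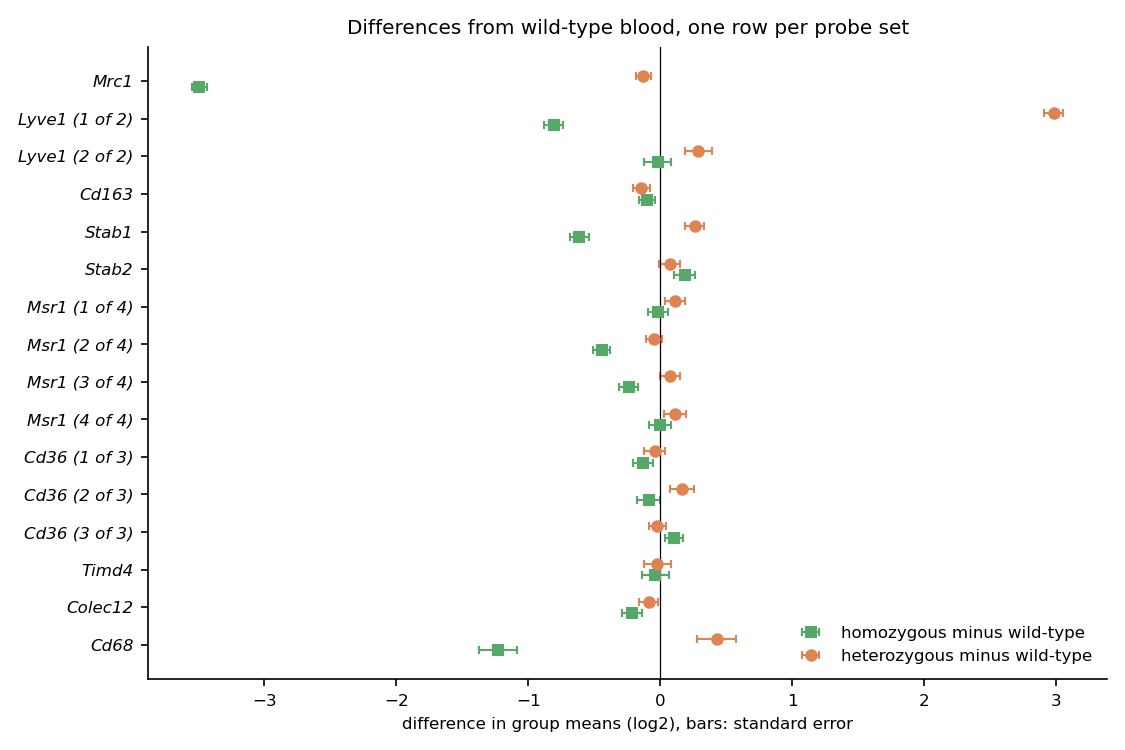
Log2 difference from the wild-type mean for each of the 16 probe sets, with standard errors; squares are homozygous and circles heterozygous blood, and both use the same 3 wild-type arrays. Mrc1 stands at -3.49 in homozygous and -0.13 in heterozygous blood, the first Lyve1 probe set at -0.81 and 2.98, and Cd68 at -1.23 and 0.43.

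Other macrophage markers fell in homozygous blood as well. For this list and those below, the shares of all genes called against wild type were 14.9% lower and 10.7% higher in homozygous blood. In heterozygous blood they were 7.04% lower and 4.79% higher. Of 19 measured markers outside the receptor genes, 15 were lower and 0 higher than in wild-type blood, with a median difference of -1.30. Itgam, Cx3cr1, Cd33 and Trem2 did not pass, although 1 gene was called higher under quantile normalization. Csf1r, whose product binds the growth factor that macrophages depend on, differed by -3.48 ± 0.07 (SE, limma adjusted p = 3.387e-11). Fcgr3, an Fc receptor, differed by -3.39, Tyrobp, a signalling adaptor, by -3.21, and C1qc, a chain of complement C1q, by -3.11. Spi1, which encodes PU.1, was lower, at -0.38 (adjusted p = 0.0263). The mean level of the list ran from 6.17 to 6.25 in wild-type, 5.89 to 5.91 in heterozygous and 4.51 to 4.63 in homozygous arrays. Those ranges did not overlap, and the part of the list in the differences of Mrc1, Cd68, Stab1 and Lyve1 was not tested. In heterozygous blood 9 of the 19 were lower than in wild-type blood and 0 higher, with a median of -0.34. Lyz2, which encodes lysozyme, was lower there, at -1.15, and Csf1r too, at -0.56. The other 10 did not pass, among them C1qa at 0.05 and Cd33 at 0.30, whose heterozygous arrays lay above the wild-type arrays. Lyve1, Stab1 and Cd68 had their highest arrays in heterozygous blood.

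Lyve1 and the stabilins also mark endothelium, so lists of other cell types were read beside them. Of 19 measured endothelial genes, 1 was lower in homozygous blood (Vwf, at -0.69) and 18 did not pass, and in heterozygous blood 1 was higher, again Vwf, at 0.38, a call lost under each of 4 other scalings (cyclic loess, quantile normalization, equal array medians, and equal means of 8 housekeeping reference genes). The mean of the list lay between 4.58 and 4.60 in wild-type, 4.63 and 4.64 in heterozygous and 4.57 and 4.59 in homozygous arrays. Its heterozygous arrays were thus above all others, by a small margin, while its wild-type and homozygous arrays overlapped. Pecam1 and Cdh5, both junction proteins that define endothelium, were at 3.19 and 4.61 in wild-type blood, and at 3.35 and 4.60 in heterozygous blood. Like Pecam1, Tek and Emcn were dim, at 2.85 and 2.63 in wild-type blood, and a fall from such levels could hardly show. Of 7 lymphatic genes, 0 passed the test in heterozygous minus wild-type blood, and Prox1, which specifies lymphatic endothelium, was at 4.00, 3.73 and 3.92 in the 3 genotypes. In homozygous blood the growth factor receptor Flt4 was higher by 0.27 and Mmrn1 lower, at -0.33, the latter not with reference genes set equal. Of 8 sinusoidal genes, Clec1b, a receptor that platelets carry too, was lower in homozygous blood, at -1.66, and 0 passed in heterozygous blood. With reference genes set equal the median endothelial difference in heterozygous blood turned from 0.03 to -0.11, with 0 genes higher and 1 lower, and 2 lymphatic and 2 sinusoidal genes were called lower. The part of these cell types in the values of Lyve1, Stab1 and Stab2 was not tested.

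Mean levels of the mesenchymal and platelet lists, like Lyve1, were highest in heterozygous and lowest in homozygous arrays. The endothelial list had this order within a narrow range. The lymphatic and sinusoidal lists did not have it. Their means were 5.18, 5.16 and 5.09, and 4.81, 4.73 and 4.61, in wild-type, heterozygous and homozygous arrays. Sinusoidal arrays did not overlap between genotypes, while the lymphatic heterozygous arrays overlapped both other groups. Of 11 mesenchymal genes, 3 were higher in heterozygous than in wild-type blood (Mest at 1.31, the collagens Col3a1 at 0.93 and Col1a2 at 0.53). The other 8 did not pass, among them Col1a1 at 0.02, Twist1 at 0.30 and Pdgfrb at -0.14, so the heterozygous peak of the list rests mostly on those 3. Mest is also 1 of the 5 genes ranked nearest to Lyve1 below. In homozygous blood 6 were lower, led by the matrix proteoglycan Lum at -1.02 and Col3a1 at -0.94. The mean of that list ran from 5.18 to 5.21 in wild-type, 5.45 to 5.53 in heterozygous and 4.79 to 4.90 in homozygous arrays, without overlap. Of 11 platelet and megakaryocyte genes, 9 were lower in homozygous blood, with Ppbp at -3.03 and Gp1bb at -2.64, and 2 were higher in heterozygous blood, Pf4 at 0.52 and Vwf at 0.38. Their list ran from 6.33 to 6.38 in wild-type, 6.56 to 6.61 in heterozygous and 5.19 to 5.23 in homozygous arrays. The part of these lists in the values of Lyve1, Stab1 and Cd68 was not tested. With reference genes set equal the median mesenchymal difference in heterozygous blood turned from 0.10 to -0.04, with the same count of 3 genes higher. Under that scaling the median platelet difference in heterozygous blood moved from 0.22 to 0.08, with 1 gene higher. Cyclic loess and equal array medians also left 1 platelet gene higher, and quantile normalization gave 4. Of 6 liver and visceral endoderm genes 5 were higher in homozygous blood, Afp by 1.06, and 1, Afp, was lower in heterozygous blood, at -0.51; with reference genes set equal 4 were lower there, and the median moved from -0.22 to -0.36. Of 7 erythroid genes, Alas2 was lower in homozygous blood, at -0.16, a call lost under cyclic loess and with reference genes set equal, and Epor in heterozygous blood, at -0.27.

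**Figure D3:**
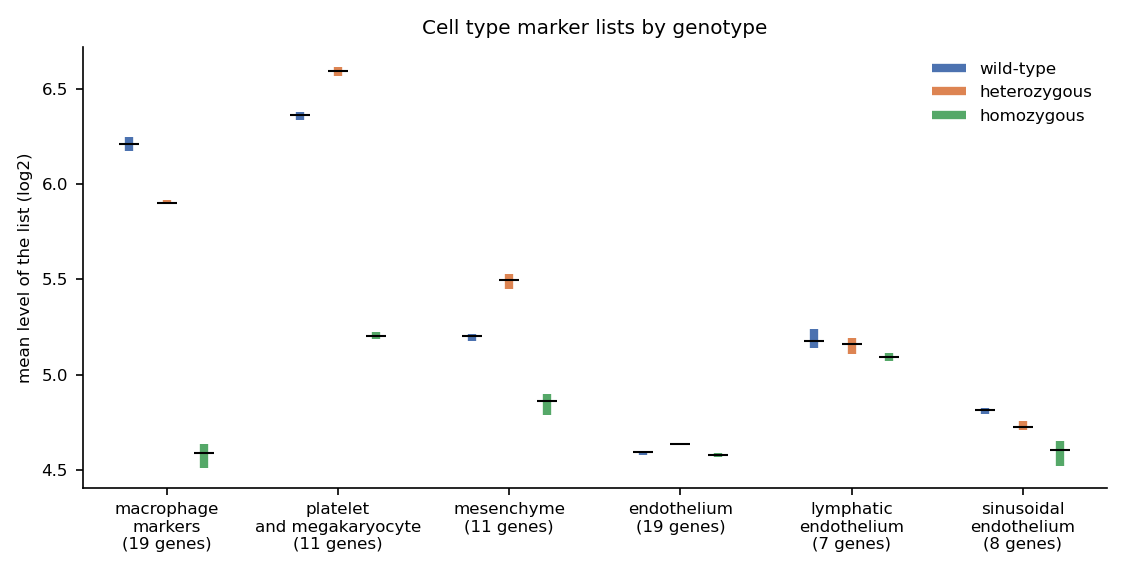
Mean log2 level of 6 marker lists in each genotype; the thick bar spans the lowest to the highest of 3 arrays and the line is their mean. The macrophage list fell from above 6.17 in wild-type to below 4.64 in homozygous arrays, and the mesenchyme list peaked in heterozygous arrays at 5.45 to 5.53. The endothelium list stayed between 4.57 and 4.64, with its heterozygous arrays the highest. Means of the lymphatic and sinusoidal lists were highest in wild-type arrays.

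The other genes of the same pathways were read from lists in homozygous minus wild-type blood. There 14.9% of all genes were called lower and 10.7% higher, with a median of 0.05. The homozygous counts of scavenger receptors and hyaluronan genes below are near the share called lower, and nothing is read from them about these pathways. Of 23 other scavenger receptors, 3 were lower and 0 higher, with a median of 0.06: Cd14, the lipopolysaccharide co-receptor, at -1.14 (adjusted p = 1.104e-06, limma), the lysosomal Scarb2 at -0.52 and the β-glucan receptor Clec7a at -0.36. Marco, another class A receptor, was at 4.39, 4.52 and 4.50 in the 3 genotypes. Of 21 genes of hyaluronan synthesis, binding and breakdown, 4 were lower and 0 higher, with a median of 0.05. These were Ugdh, which makes the UDP-glucuronate used for hyaluronan, at -0.91, the mitotic hyaluronan-binding protein Hmmr at -0.90, the hyaluronan-degrading Cemip2 at -0.77 and the receptor Cd44 at -0.40. Hmmr was also the gene of this list that passed in heterozygous blood, at -0.69. In heterozygous minus wild-type blood 0 of the 23 other scavenger receptors passed; with reference genes set equal 3 were lower. Under quantile normalization 2 of the other scavenger receptors and 2 of the hyaluronan genes were called higher in homozygous minus wild-type blood.

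Of 25 genes of apoptotic cell uptake, 6 were lower in homozygous blood and 0 higher, with a median of 0.02, beside 14.9% of all genes lower and 10.7% higher. The lipid exporter Abca1 was lower, at -2.95 (adjusted p = 6.24e-09, limma), the bridging ligand Gas6 at -1.22, the integrin subunit Itgb3 at -0.82 and the GTPase Rac2 at -0.71. Mertk and Axl, the receptors for Gas6, were at 0.11 and 0.05 and did not pass. Of 17 genes of lipid uptake and Cd36 partners, 6 were lower and 2 higher, with a median of 0.03. The fatty acid binding protein Fabp5 was higher by 0.78 and the lipid exporter Abcg1 by 0.65, while the tetraspanin Cd9 was lower, at -0.68 beside Abca1. Of 10 lysosomal genes, to which Cd68 is close in location, 9 were lower and 0 higher, with a median of -0.36. Laptm5, a lysosomal protein of blood cells, was lower, at -2.15, the hexosaminidase subunit Hexa at -0.75, Lamp2 at -0.65 and Scarb2 at -0.52. In heterozygous minus wild-type blood the counts of lower and higher genes were 2 and 1 for apoptotic uptake, 2 and 2 for lipid uptake, and 2 and 1 for lysosomal genes, where Laptm5 was higher by 0.32, though not with reference genes set equal, and Lamp2 was lower, at -0.45. With reference genes set equal these counts were 3 and 0, 5 and 2, and 5 and 0. Several lists share genes, among them Cd14, Scarb2, Abca1, Itgb3 and Vwf.

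Genes that followed Lyve1 and Mrc1 most closely were ranked by the Pearson correlation over the 9 arrays, among 408 genes whose group means span at least 1 log2 unit. The points fall into 3 genotype groups, so these values describe group means more than single arrays and carry no p-value. Lyve1 was read here by its first probe set alone, whose pattern the second did not follow in size. The 5 nearest to Lyve1 were Basp1 (r = 0.991), Marcksl1 (0.990), Mest (0.988), Cnn3 (0.981) and Vim (0.967). Marcksl1 encodes a relative of the protein kinase C substrate MARCKS, Cnn3 an actin-binding calponin and Vim vimentin. The peak of these 5 genes in heterozygous blood follows from the ranking, since Lyve1 has it, and is no separate result. Basp1 had means of 5.83, 6.79 and 5.42 and Cnn3 of 6.37, 7.15 and 5.95, in the order wild-type, heterozygous, homozygous. The 5 nearest to Mrc1 were Ifitm2 (r = 0.999), the lysosomal protease Ctsc (0.999), Fcgr3 (0.997), the imprinted gene Peg3 (0.997) and the actin-sequestering Tmsb4x (0.997). Ctsc had means of 7.74, 7.58 and 4.53, with the narrow step and then the wide step seen for Mrc1, for which the ranking likewise selects.

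**Figure D4:**
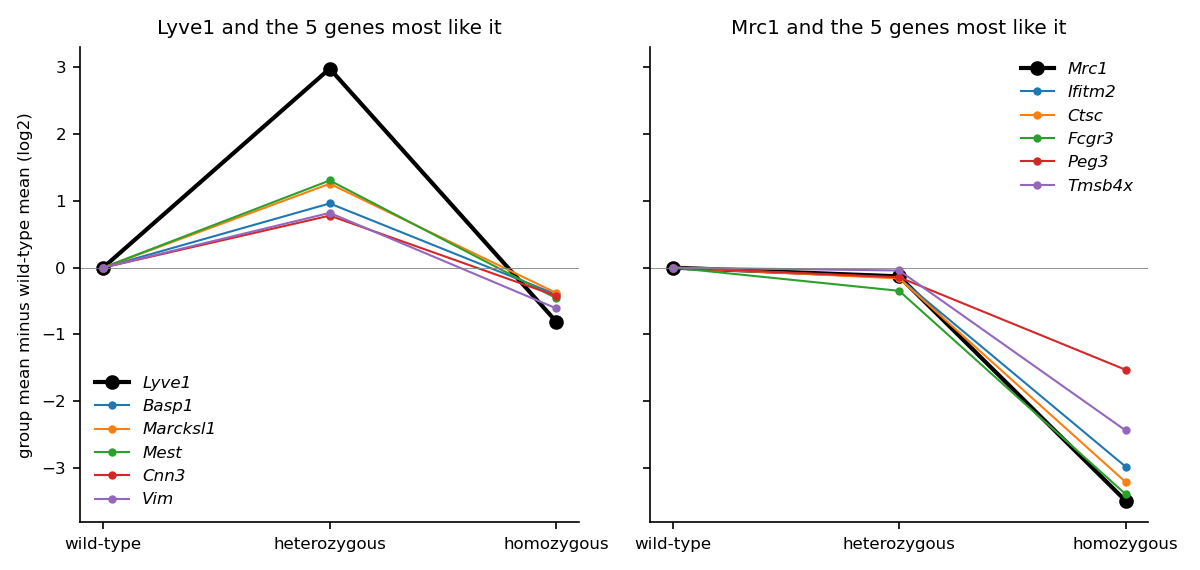
Group means minus the wild-type mean, on the log2 scale, for Lyve1 (left) and Mrc1 (right) and the 5 genes most like each over 9 arrays; lines join the 3 genotypes of a gene. Lyve1 is read by its first probe set. The genes beside Lyve1 are highest in heterozygous blood and below wild type in homozygous blood, and those beside Mrc1 are lowest in homozygous blood. Both shapes follow from the ranking that picked the genes.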

How the data were processed

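Per the labels, total RNA came from RNA-STAT extraction and took biotin label in the Affymetrix one-cycle protocol. The authors deposited 1 table of 45101 probe sets by 9 arrays, made, per the submitters' processing notes, with RMA, Affymetrix Expression Console 1.0 and Partek 6.5 in an order not given. The deposited values, from 1.49 to 14.6 with array medians of 4.26 to 4.30, were read as log2 because of that range and of RMA; the scale is stated nowhere. RMA brings the arrays towards 1 common distribution, which can take away a difference that all genes share. No detection calls were used, which leaves signal over background unknown, and precision is limited by the number of arrays.

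The 64 control probe sets were left out. The platform annotation, checked through Entrez identifiers against RefSeq names, gave 1 gene for 34945 probe sets. Each gene is read by the probe set with the highest mean, and no filter was set on low values. Genotype was taken from the titles. A model of genotype was fitted to all 9 arrays with limma 3.58.1 (lmFit, contrasts.fit, eBayes) in R 4.3.3, with 2-sided tests, Benjamini-Hochberg adjustment over 45037 probe sets and a threshold of 0.05. The procedure was tested on simulated data. Figures were drawn with matplotlib 3.10.9.

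The receptor genes and all lists were chosen with earlier results of these data known. Named genes are the 10 receptors, up to 4 called genes per list with the largest homozygous change or up to 2 uncalled ones, the 5 genes nearest to Lyve1 and Mrc1, Cbfb and Csf1r. Others were added after their values were seen: genes named for their heterozygous change, Prox1, Pecam1, Cdh5, Tek, Emcn, Spi1, Itgam, Cx3cr1, Cd33, Trem2, C1qa, Col1a1, Twist1, Pdgfrb, Marco, Mertk and Axl. As alternatives, the model was fitted to the compared groups alone, with replicate numbers as blocks, without the dimmest 40%, with an intensity trend in the prior, and after cyclic loess, quantile normalization, equalized array medians or equalized reference genes; others were a threshold of 0.01, the mean of a gene's probe sets, and each array left out.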

Additional observations from a re-analysis of the deposited data

How the results depend on the processing

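Differences of the 16 receptor probe sets were recomputed 843 times over 18 alternatives: 807 kept their direction and side of the threshold, or were uncalled in both; 21 calls were lost, 15 were gained and 0 reversed. The falls of Mrc1, Lyve1 (first probe set), Stab1 and Cd68 from wild-type to homozygous blood passed in these 18; the Lyve1 probe set passes the filter on dim probe sets through its heterozygous arrays. The heterozygous count of 2 receptor probe sets and 2 genes became 1 and 1 under cyclic loess and at a threshold of 0.01, and 1 to 3 for each when arrays were left out in turn; Stab1 was lost in 10 of 18. It was 3 and 3 with reference genes set equal, and also in the fit of the compared groups alone, which added Cd68. With reference genes set equal, the probe sets called over the whole array rose from 3855 to 8369 in heterozygous minus wild-type blood, with 39.8% of them higher before and 7.95% after, and from 5459 to 19619 in homozygous minus heterozygous blood, with 34.4% and 87.6% higher; the median of all probe sets moved to -0.13 and 0.17. At a threshold of 0.01 these counts were 2153 and 3057. Of the 8 reference genes measured, 3 themselves passed the test in heterozygous minus wild-type blood. With the mean of a gene's probe sets, 6, 2 and 5 of the 10 genes passed in homozygous minus wild-type, heterozygous minus wild-type and homozygous minus heterozygous blood. The filter on dim probe sets gives no value for 7 of the 16. The cause of these changes was not tested.

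Replicate numbers were tried as a pairing. Deviations of same-numbered arrays from their group means correlated at -0.02 to 0.07 over 9 pairs, so the numbers were not taken as pairs, although 7 of 9 arrays matched best an array of their own number. With the replicate block, 8905, 3571 and 5199 probe sets and 6, 2 and 6 receptor probe sets passed in the same order of contrasts, and 4, 2 and 4 of the receptor genes; it changed no call of a receptor.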
